A study of Mus musculus with 2 samples.

Results

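Divergent gene pair promoters are stretches of DNA from which a pair of genes is read in opposite directions. They were taken as all pairs of protein-coding genes on opposite strands of the mouse genome (mm9 build) whose most 5' starts face away from each other and lie 1000 bp or less apart. The rule used the gene annotation alone and no measured value. It found 808 pairs, made of 1599 of the 22367 protein-coding genes (7.15%), and 17 genes stood in more than 1 pair. The distance between the starts had a median of 141 bp, ranged between 1 and 987 bp, and was 300 bp or less in 637 pairs (78.8%). They are set beside 19653 single promoters, genes with no other protein-coding start within 1000 bp; the other 1115 genes were in neither set.

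A divergent promoter places the start sites of its genes back to back, so that a single stretch without packed nucleosomes can serve transcription on both strands. In mammals such promoters are common among genes that every cell uses, many of them for DNA repair, mitochondria, chromatin and RNA, and most lie in CpG islands, GC-rich stretches that keep their CpG dinucleotides. Typical CpG-island promoters lack a TATA box and carry sites for general factors such as Sp1, NF-Y, NRF1 and ETS proteins. DNase I cuts chromatin where nucleosomes are displaced, and sequencing the cut ends maps these open sites.

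The study mapped such sites in G1E-ER4 and G1E cells, male lines of mouse strain 129 that the labels trace to embryonic stem cells. G1E-ER4 are erythroid cells in which the gene for the maturation factor Gata1 was restored, and they were differentiated for 24 h with 10 nM beta-estradiol. G1E cells are erythroid progenitors without Gata1 and had no treatment. Each state is 1 sample with 2 peak lists, so the line, the restored gene, estradiol and the sample cannot be told apart, and no untreated G1E-ER4 cells were analysed here. Whether the 2 lists of a state come from separate cultures is not stated, their spread may be technical, and no test between states was possible. Each list holds 100000 peaks, and read depth is unknown. The strength of a peak is given as its percentile within its own list, where 100 is the strongest peak. The most 5' starts of 6 of 7 erythroid markers lay under or near a peak in all 4 lists, as did 2 of 3 megakaryocyte and 1 of 3 myeloid markers, and none of 3 T and B cell markers did in any list. G1E-ER4 list 1 stood apart: 481 of the 737 pairs with a peak in all 4 lists (65.3%) had their lowest percentile there, so the main results that rest on it are also given without it.

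The DNA between the starts of 10 pairs is shown on the plus strand of mm9, from the base after the minus-strand gene's start to the base before the plus-strand gene's start. Capitals mark matches, on either strand, to the 13 short motifs searched. The pairs of Mrps12 with Sars2, Mmab with Mvk, Aurka with Cstf1 and Usp5 with Cdca3 are among the strongest open regions described below, Brca1 with Nbr1 and Wrap53 with Trp53 are well-known pairs, Nr2e1 with Ostm1, Cabp4 with Gpr152 and Dus4l with Cog5 differed between the states, and Plcz1 with Capza3 had no peak in any list.
Mrps12/Sars2, chr7:29526840-29527009: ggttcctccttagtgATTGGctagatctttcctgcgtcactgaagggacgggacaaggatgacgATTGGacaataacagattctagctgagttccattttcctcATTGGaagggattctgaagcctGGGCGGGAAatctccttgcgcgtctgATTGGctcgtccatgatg
Mmab/Mvk, chr5:114894069-114894277: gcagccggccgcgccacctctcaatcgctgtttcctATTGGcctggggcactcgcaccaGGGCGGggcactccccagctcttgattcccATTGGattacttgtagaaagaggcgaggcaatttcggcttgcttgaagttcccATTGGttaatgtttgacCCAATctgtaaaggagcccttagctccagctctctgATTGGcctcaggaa
Aurka/Cstf1, chr2:172196036-172196180: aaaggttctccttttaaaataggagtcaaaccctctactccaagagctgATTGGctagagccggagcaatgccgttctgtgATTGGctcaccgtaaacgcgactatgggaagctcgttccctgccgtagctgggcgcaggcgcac
Usp5/Cdca3, chr6:124779503-124779564: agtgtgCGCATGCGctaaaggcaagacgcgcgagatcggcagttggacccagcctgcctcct
Brca1/Nbr1, chr11:101413270-101413462: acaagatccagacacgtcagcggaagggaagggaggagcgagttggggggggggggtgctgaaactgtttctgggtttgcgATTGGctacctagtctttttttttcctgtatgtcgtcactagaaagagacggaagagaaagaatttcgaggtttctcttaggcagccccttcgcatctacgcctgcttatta
Wrap53/Trp53, chr11:69393758-69393860: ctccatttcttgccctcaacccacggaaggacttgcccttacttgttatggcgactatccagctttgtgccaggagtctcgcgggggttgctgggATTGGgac
Nr2e1/Ostm1, chr10:42303439-42303627: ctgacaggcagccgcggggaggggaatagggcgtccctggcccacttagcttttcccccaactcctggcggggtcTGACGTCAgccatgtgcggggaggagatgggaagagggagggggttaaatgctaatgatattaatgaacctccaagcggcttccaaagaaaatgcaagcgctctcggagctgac
Cabp4/Gpr152, chr19:4139610-4139783: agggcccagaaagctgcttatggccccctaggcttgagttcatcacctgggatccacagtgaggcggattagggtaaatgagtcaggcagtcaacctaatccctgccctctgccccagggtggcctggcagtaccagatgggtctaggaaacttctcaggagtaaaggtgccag
Dus4l/Cog5, chr12:32339692-32339733: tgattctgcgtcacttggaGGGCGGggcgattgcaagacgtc
Plcz1/Capza3, chr6:139989979-139990045: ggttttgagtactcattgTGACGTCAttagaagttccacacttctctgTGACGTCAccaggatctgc
In the Mrps12/Sars2 and Mmab/Mvk intervals, 4 and 5 of the 6 matches were CCAAT boxes, mostly read on the minus strand as ATTGG. The Cabp4/Gpr152 interval held no match and a single CpG in its 174 bases.

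Nearly all divergent pairs were open in both states, and far more often than single promoters. In G1E-ER4 lists 1 and 2, a peak overlapped the interval between the starts plus 500 bp on each side in 746 (92.3%) and 777 (96.2%) of the 808 pairs. In G1E lists 1 and 2, 769 (95.2%) and 762 (94.3%) of them held a peak. The same share among single promoters, measured 500 bp either side of the start, was 48.0 and 58.8% in G1E-ER4, against 54.8 and 50.0% in G1E. Over the 4 lists the shares averaged 94.5 ± 1.63% for pairs and 52.9 ± 4.89% for single promoters (SD, n = 4 lists), and the lowest list for pairs lay above the highest for single promoters. A pair window holds 2 starts and a single window 1, so a pair had more chances to count as open. The part of this in the difference was not tested.

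In all 4 lists a peak was found at 737 pairs (91.2%, Wilson 95% interval 89.1 to 92.98%), against 8142 single promoters (41.4%, interval 40.7 to 42.1%). Without G1E-ER4 list 1 the shares were 93.2% of pairs and 45.2% of single promoters. No list had a peak at 21 pairs (2.60%) and at 6898 single promoters (35.1%). Part of the single promoters are predicted or olfactory, vomeronasal, keratin-associated and defensin genes. With those names left out on both sides, the share open in all 4 lists was 93.8% of 613 pairs and 50.5% of 15089 single promoters. These intervals cover the counting of regions only, and pairs that share a gene are not independent.

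Taken over all promoters, the peaks at divergent pairs also ranked higher. Their median percentile was 92.3 and 95.8 in G1E-ER4 lists 1 and 2, against 95.3 and 95.6 in G1E lists 1 and 2, where single promoters with a peak had 89.9 and 91.8 in G1E-ER4, against 91.4 and 92.3 in G1E. The difference was above 0 in each list and averaged 3.42 ± 0.735 points (SD, n = 4 lists). In the G1E-ER4 lists 61.8 and 91.6% of the pairs with a peak had it among the strongest 10% of the list, and in the G1E lists 84.0 and 85.6% did. For single promoters these shares were 49.5 and 55.7% in G1E-ER4, against 54.6 and 59.7% in G1E. The strongest 10% of every list held 430 pairs (53.2% of all pairs) and 3935 single promoters (20.0%). G1E-ER4 list 1 limited this count, and without it the strongest 10% of the other 3 lists held 616 pairs (76.2%) and 5278 single promoters (26.9%). The strongest 1% of every list held 13 pairs.

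**Figure D1:**
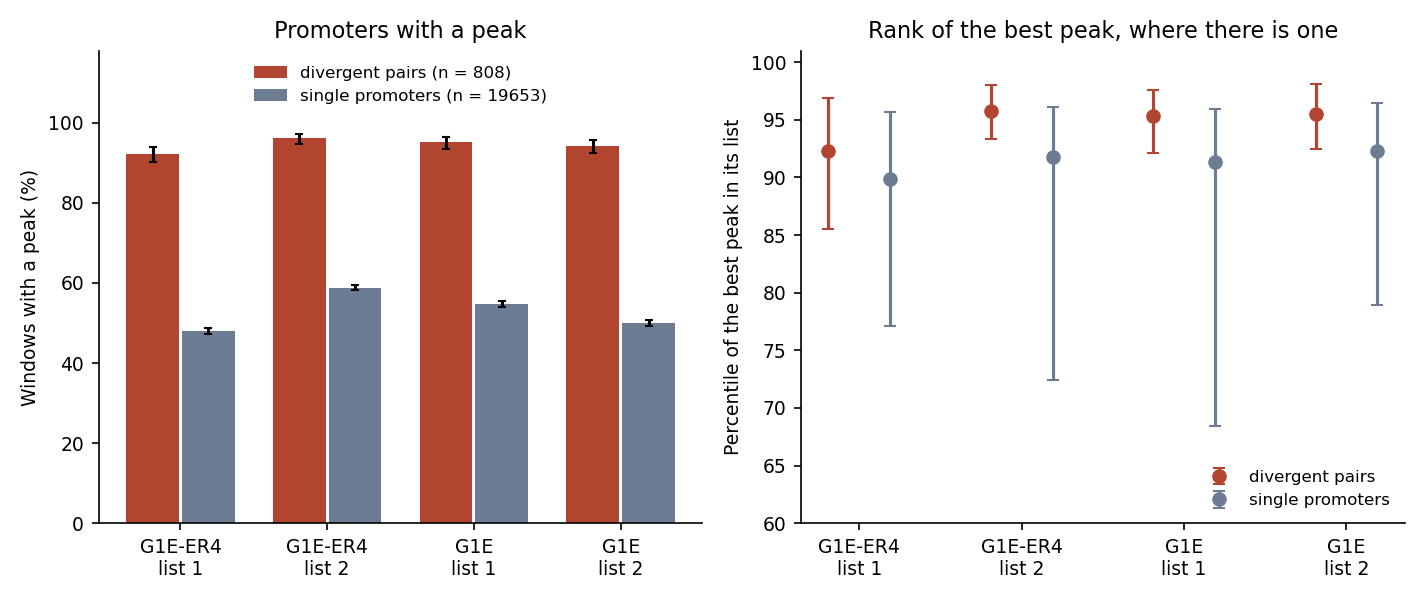
Share of promoters with a peak (left, in percent, bars with Wilson 95% intervals) and percentile of the best peak where there is one (right, median with quartiles) in each of the 4 lists, for divergent pairs and for single promoters. Between 92.3 and 96.2% of pairs held a peak, against 48.0 to 58.8% of single promoters, and the median percentile of pairs was higher in each list.

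The open region usually covered both starts without a break. Both starts lay under the same peak in 87.3 and 93.6% of pairs in G1E-ER4 lists 1 and 2, and in 91.6 and 91.2% of them in G1E lists 1 and 2. In 689 pairs (85.3%) this was so in all 4 lists, and without G1E-ER4 list 1 in 724 (89.6%). The start of a single promoter lay under a peak in 41.2 and 55.6% of cases in G1E-ER4, against 50.0 and 46.3% in G1E, but many single promoters had no peak. Among single promoters with a peak it was 85.8 and 94.5% in G1E-ER4, against 91.3 and 92.6% in G1E. Among pairs with a peak, both starts lay under the same peak in 94.5 and 97.3% in G1E-ER4, against 96.2 and 96.7% in G1E. The difference was thus small where a peak was present. More than 1 peak per window was uncommon, at 52 and 21 pairs in G1E-ER4, against 24 and 13 pairs in G1E.

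The peaks of pairs were wide. Their median width was 1580 and 2230 bp in G1E-ER4 lists 1 and 2, against 1724 and 2542 bp in G1E lists 1 and 2. At single promoters it was 1486 and 1791 bp in G1E-ER4, against 1411 and 2103 bp in G1E. The difference averaged 321 ± 163 bp (SD, n = 4 lists) and was smallest, at 93.5 bp, in G1E-ER4 list 1. Around the middle of the interval the covered share was close to symmetric in both directions. At 1000 bp on the minus-strand gene's side and on the plus-strand gene's side, peaks covered 41.1 and 41.1% of pairs in G1E-ER4 list 1, 58.4 and 58.2% in G1E-ER4 list 2, 38.9 and 38.9% in G1E list 1, and 68.3 and 68.6% in G1E list 2. Single promoters were covered less often upstream than downstream at that distance in each list, for example 16.4% upstream and 39.6% downstream in G1E-ER4 list 2 and 20.0 and 36.9% in G1E list 2.

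**Figure D2:**
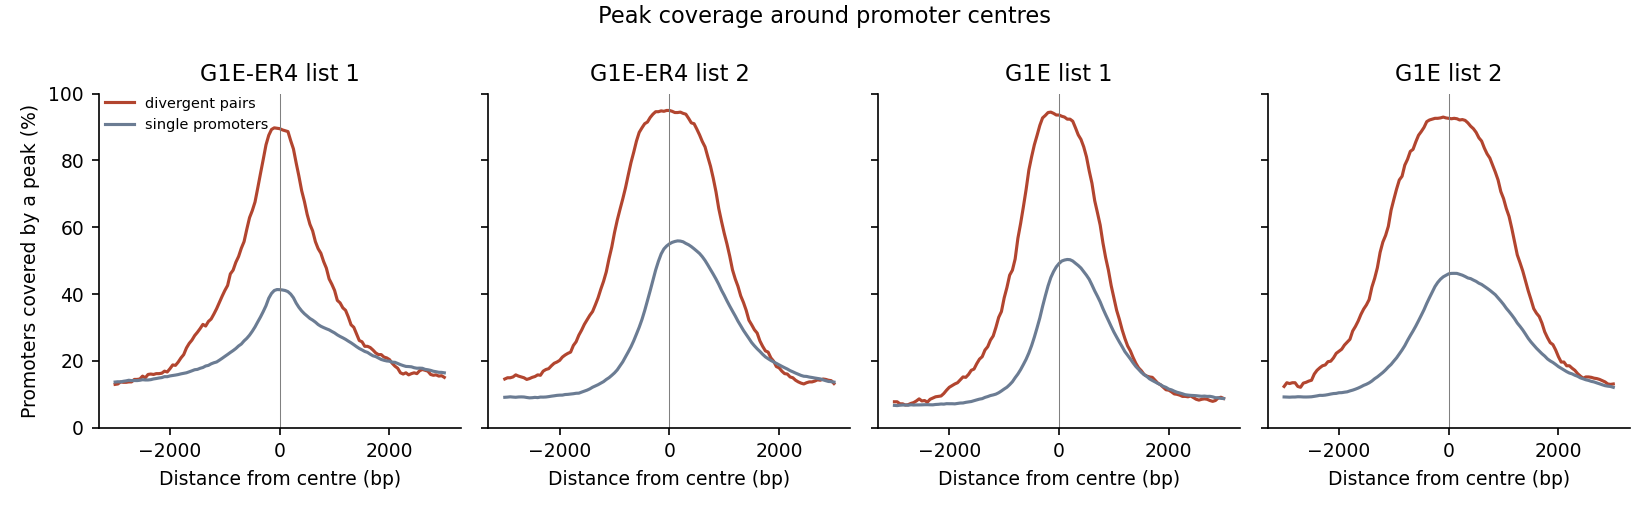
Share of promoters covered by a peak (in percent) against the distance in bp from the middle of the interval of divergent pairs, with the plus-strand gene to the right, or from the matching point upstream of single starts, with the gene to the right, in each list. The curves of pairs stand at 89.5 to 94.9% at the middle and fall off alike on both sides, and those of single promoters are lower within 500 bp of the centre and shifted into the gene; farther out the curves meet and in places cross.

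The summit, the highest point of the peak, fell between the starts in 60.5 and 61.1% of pairs with a peak in G1E-ER4 lists 1 and 2 and in 59.7 and 61.5% in G1E lists 1 and 2. Where it lay outside, it was about as often on the side of the plus-strand gene (163 and 156 pairs in G1E-ER4, 153 and 150 in G1E) as on that of the minus-strand gene (132 and 146 in G1E-ER4, 157 and 143 in G1E). The place of the summit changed with the distance. Among pairs over 100 and up to 200 bp apart its median distance to the middle was 28.5 and 33.5 bp in G1E-ER4 and 34 bp in both lists of G1E. Among the 83 pairs over 500 bp apart, it was 355 and 348 bp from the middle in G1E-ER4, against 376 and 354 bp in G1E, but 105.5 and 91 bp from the nearer start in G1E-ER4, against 93 and 94 bp in G1E. In wide pairs, then, the strongest point lay near 1 of the starts and not midway between them.

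Spanning became rarer as the starts lay farther apart. Averaged over the lists, both starts were under the same peak in 95.9% of pairs up to 50 bp apart and in 64.3% of the 35 pairs over 700 bp apart. Of the 83 pairs over 500 bp apart, 43 had both starts under the same peak in all 4 lists, against 273 of the 298 pairs up to 100 bp apart. Hist1h2bh/Hist1h3f, a pair of replication-dependent histone genes 693 bp apart, was the only wide pair with 2 or more peaks in every list. Just inside the limit of 1000 bp, 12 pairs were over 900 bp apart and 9 of them were open in all 4 lists, with a spanning share of 47.9%. The 21 pairs up to 100 bp beyond it had a spanning share of 66.7%, and 19 were open in all 4 lists, so no step marked the limit. Between 2000 and 3000 bp, a distance near the width of the peaks themselves, the share was 5.0%.

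**Figure D3:**
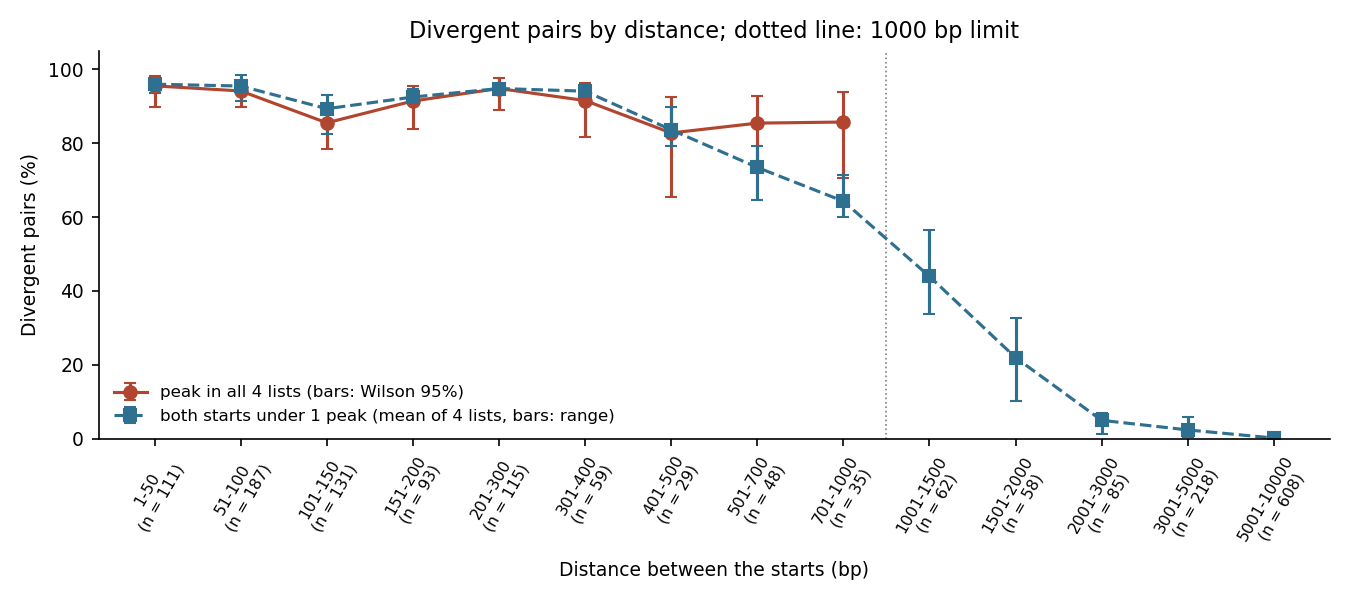
Share of divergent pairs (in percent) with a peak in all 4 lists, with Wilson 95% intervals, and with both starts under the same peak, as the mean of the 4 lists with their range, by the distance between the starts in bp. Beyond the dotted limit only the spanning share is drawn, since those windows include a longer interval; it is 95.9% for the closest pairs and 5.0% at 2000 to 3000 bp.

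Divergent pairs were rich in CpG, and this accompanied their openness. Over 500 bp at the middle of the interval, the median GC content was 62.4% and the median ratio of observed to expected CpG was 0.830, against 54.6% and 0.495 at the matching point of single promoters. A ratio of at least 0.6 with a GC content of at least 55%, called CpG-rich here, was met by 612 pairs (75.7%) and 36.7% of single promoters. Among CpG-rich promoters, 95.4% of the 612 pairs (interval 93.5 to 96.8%) and 76.0% of the 7214 single promoters (interval 74.96 to 76.9%) were open in all 4 lists. Among the rest it was 78.1% of 196 pairs and 21.4% of 12439 single promoters. Pairs stood above single promoters in every class of CpG ratio, from 31.2% of 16 pairs against 5.63% of single promoters below a ratio of 0.2 to 98.0% of 98 pairs against 82.3% at 1.0 or more. When a peak at any annotated start of the gene counted, 78.1% of CpG-rich single promoters were open in all 4 lists.

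The advantage in rank and width was smaller within CpG-rich promoters. The median percentile of CpG-rich pairs exceeded that of CpG-rich single promoters by 1.47 ± 0.635 points (SD, n = 4 lists), less than among all promoters. Their peaks were wider by 284, 147.5 and 231 bp in G1E-ER4 list 2 and G1E lists 1 and 2, but narrower by 121 bp in G1E-ER4 list 1, so the width difference did not hold in every list.

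**Figure D4:**
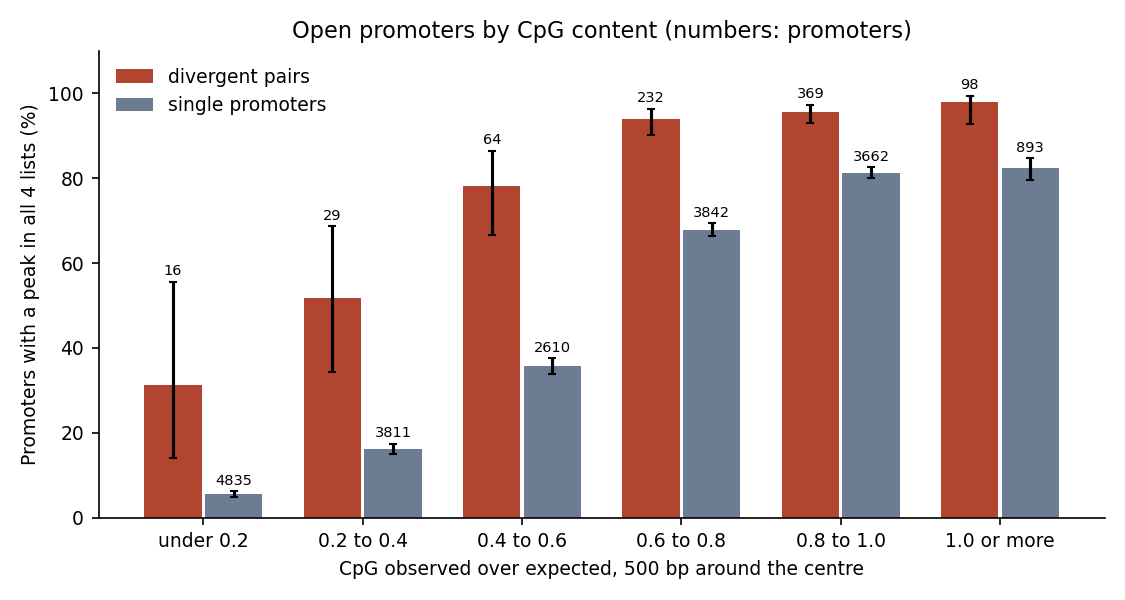
Share of promoters with a peak in all 4 lists (in percent, with Wilson 95% intervals) by the ratio of observed to expected CpG over 500 bp, for divergent pairs and single promoters, with the number of promoters above each bar. Pairs are higher in every class, and both sets rise with CpG content, to 98.0% of pairs and 82.3% of single promoters at a ratio of 1.0 or more.

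Pairs differed from single promoters in several short motifs, counted on both strands of the reference in 300 bp around the same points. In most pairs this window reached past the interval and held the starts of both genes. At single promoters it held only the gene's own start, so motifs near starts had more chances to be found at pairs. The part of this in the differences was not tested. The short ETS motif CCGGAAG, bound by a family that includes GABP, was in 28.2% of pairs and 9.43% of single promoters, and among CpG-rich promoters in 33.7 and 17.1%. Its longer form CCGGAAGTG, which overlaps it, was in 7.92% of pairs and 2.07% of single promoters. The NRF1 motif CGCATGCG was in 5.57 and 1.98%, and the YY1 motif AAGATGGCG in 5.32 and 1.78%. The E2F motif TTCCCGC was in 11.01 and 5.23%, and the cyclic AMP response element TGACGTCA in 4.33 and 2.19%. The CCAAT box CCAAT was in 43.1% of pairs and 37.2% of single promoters, and the E-box CACGTG in 10.3 and 7.51%. Within CpG-rich promoters the differences were smaller, with 6.37% of pairs and 4.08% of single promoters for NRF1, 5.72 and 3.31% for YY1, 5.23 and 3.66% for the cyclic AMP response element, 12.3 and 10.3% for E2F and 40.4 and 34.7% for the CCAAT box. The E-box did not differ there, at 11.4 and 11.4%.

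Most other motifs did not follow that order. The GC box GGGCGG was in 67.2% of pairs and 41.8% of single promoters, but within CpG-rich promoters in 76.1% of pairs and 80.2% of single promoters. The TATA box TATAAA was in 4.70% of pairs and 13.5% of single promoters, and within CpG-rich promoters in 1.63 and 4.17%. The erythroid motifs were also rarer at pairs, with the GATA motif AGATAA in 4.21 and 10.2% and the CACCC box CCACACCC in 2.48 and 3.72%; within CpG-rich promoters the GATA motif was in 2.61% of pairs and 2.95% of single promoters. The Znf143 motif ACTACAATT did follow it but was rare in both sets, at 0.743% of pairs and 0.427% of single promoters. Pairs with a CCAAT box had a median percentile of 95.8, against 94.0 for the other pairs. This was not particular to the CCAAT box. Pairs with a GC box had 95.2 against 93.9 without, and pairs with a TATA box 93.1 against 94.9 without. A match to these letters does not show that a factor was bound.

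The genes of divergent pairs were unevenly spread over gene groups, which were drawn up by symbol. Of all genes 7.15% stood in a pair. Histone genes had the highest share, 35.5% (27 of 76), most of them in 13 pairs made of 2 histone genes. They were followed by genes of DNA replication and repair with 25.2% (32 of 127), the transcription machinery with 21.9% (25 of 114), RNA processing and numbered WD-repeat genes with 19.7% (43 of 218), tRNA synthetases with 18.9% (7 of 37) and mitochondrial proteins with 18.9% (50 of 265). Proteasome genes reached 14%, cell cycle genes 13.3%, cytosolic ribosomal proteins 9.64% and genes of the ubiquitin system 9.27%. Zinc finger genes, with 5.94%, and erythroid genes, with 1.61% (1 of 62), were below the share of all genes, as were predicted and tissue-restricted names with 4.05%.

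Pairs of these groups were nearly all open in both states. All 4 lists had a peak at 31 of 31 pairs with a DNA replication or repair gene, 43 of 43 with an RNA processing or WD-repeat gene, 25 of 25 with a gene of the transcription machinery, 7 of 7 with a tRNA synthetase gene and 7 of 7 with a proteasome gene. Single promoters of the same groups were open in all 4 lists in 88.5, 84.5, 91.5, 100 and 86.5%. The widest gaps were in the ubiquitin group, with 28 of 29 pairs against 64.3% of single promoters, and the zinc finger group, with 20 of 22 pairs against 63.4%. The cytosolic ribosome ran the other way, with 6 of 8 pairs and 90% of 70 single promoters. Among promoters open in all 4 lists, the median percentile of pairs was below that of single promoters in some groups. These were DNA replication and repair (93.9 against 94.8), tRNA synthetases (93.3 against 94.2), the proteasome (92.4 against 93.1) and the cytosolic ribosome (90.4 against 92.7). In the other groups that of pairs was higher. Among predicted and tissue-restricted names 83.1% of 195 pairs were open in all 4 lists and 11.4% of single promoters; most of these pairs join such a gene to one with an ordinary name.

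The examples that follow are among the highest of their groups by the mean over the lists, a choice that leaves little room for a low value in any list. Mrps12/Sars2, which joins a mitochondrial ribosomal protein to the mitochondrial seryl-tRNA synthetase, ranked at 99.8 and 99.1 in G1E-ER4 lists 1 and 2, against 98.7 and 99.8 in G1E lists 1 and 2. Xrcc3/Zfyve21, with the recombination protein Xrcc3, stood at 98.6 and 99.6 in G1E-ER4, against 99.8 and 99.95 in G1E. The mitotic kinase gene Aurka, paired with the polyadenylation factor gene Cstf1, stood at 98.5 and 97.9 in G1E-ER4, against 98.8 and 98.7 in G1E. The lists of the states overlapped in Mrps12/Sars2. In Xrcc3/Zfyve21 and Aurka/Cstf1 both G1E-ER4 lists lay just below both G1E lists. Med29/Paf1, which joins a Mediator subunit to a subunit of the elongation complex Paf1, stood at 99.4 and 98.5 in G1E-ER4, against 98.0 and 99.5 in G1E. Wars/Wdr25, with the cytosolic tryptophanyl-tRNA synthetase, varied more, at 93.02 and 98.2 in G1E-ER4, against 99.8 and 99.9 in G1E. Both of its G1E-ER4 lists lay below both G1E lists. Psma7/Ss18l1, with a proteasome subunit, stood at 97.8 and 98.7 in G1E-ER4, against 98.8 and 93.02 in G1E. Usp5/Cdca3, which joins a deubiquitinase to a gene of mitotic entry, stood at 98.5 and 98.7 in G1E-ER4, against 98.2 and 99.8 in G1E.

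Histone pairs were open but weaker than pairs as a whole. Of the 14 pairs with a histone gene, 13 were open in all 4 lists, with a median percentile of 91.2, below the 94.8 of all pairs. This was above the 88.6 of single histone promoters, and pairs with a cytosolic ribosome gene were lower still, at 90.4. Hist1h2ah/Hist1h2bk was the strongest, at 96.5 and 94.8 in G1E-ER4, against 97.1 and 99.8 in G1E. Histone genes have near-identical copies, and the authors kept reads with several matches at their best place, so the values of single histone pairs are uncertain. The 1 erythroid pair was Urod/Hectd3, in which Urod encodes the heme enzyme uroporphyrinogen decarboxylase and Hectd3 a ubiquitin ligase. Its starts are 904 bp apart, and it stood at 98.1 and 94.7 in G1E-ER4, against 92.6 and 93.6 in G1E, higher in both G1E-ER4 lists but by under 10 points on average.

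Of 15 well-known divergent pairs listed, the rule found 7. In the annotation used, the most 5' starts of another 7, among them Hspd1/Hspe1 and Surf1/Surf2, overlap by 21 to 341 bp and so do not face away from each other; the other one, Tap1/Psmb9, was not analysed here. Among those found, Gart/Son, which joins a purine synthesis enzyme to a splicing cofactor, stood at 94.4 and 99.5 in G1E-ER4, against 98.98 and 99.2 in G1E. Wrap53/Trp53, with the tumour suppressor p53 and the telomerase cofactor Wrap53, stood at 95.1 and 94.5 in G1E-ER4, against 92.2 and 95.1 in G1E, under peaks of 3085 and 5003 bp in G1E-ER4, against 1786 and 5383 bp in G1E. The states overlapped in both.

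For 3 of the well-known pairs, each with a DNA repair gene, G1E-ER4 list 1 was far below the other lists. This was not particular to repair genes. Mtrr/Fastkd3 and Dzip3/C330027C09Rik, given below, had it too, and Xrcc3/Zfyve21 did not. Brca1/Nbr1, with the homologous recombination gene Brca1 and the autophagy receptor gene Nbr1, stood at 79.9 and 94.8 in G1E-ER4, against 93.9 and 97.0 in G1E. Atm/Npat, with the DNA damage kinase Atm and the histone gene activator Npat, stood at 86.6 and 98.1 in G1E-ER4, against 98.6 and 98.8 in G1E. Mcm4/Prkdc, with a replicative helicase subunit and the catalytic subunit of DNA-dependent protein kinase, stood at 74.0 and 94.5 in G1E-ER4, against 91.6 and 93.8 in G1E. In Atm/Npat both G1E-ER4 lists were below both G1E lists, with a mean difference of -6.35 points, and list 2 alone differed from the nearer G1E list by under 1 point. Col4a4/Col4a3, a pair of basement membrane collagen genes, had a peak in G1E-ER4 list 2 only, at percentile 64.9.

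The 10 highest pairs had mean percentiles of 99.5 to 99.8 over the 4 lists. The strongest was Tcf19/Cchcr1, which stood at 99.6 and 99.95 in G1E-ER4, against 99.8 and 99.9 in G1E. Next came Stra13/Lrrc45, in which Stra13 encodes a centromere and Fanconi anaemia core protein. The others were 2310044H10Rik/Fam71e1, Rnft2/2410131K14Rik, Npc2/Isca2, Chtf18/Rpusd1, Tada2b/Ccdc96, Mmab/Mvk, Gm10941/Pofut2 and Chpf/Tmem198. Npc2 carries cholesterol out of lysosomes, Isca2 assembles iron-sulfur clusters in mitochondria, Chtf18 is a clamp loader subunit, Tada2b belongs to the SAGA complex, and Mmab and Mvk serve cobalamin use and sterol synthesis. In all 10 both starts lay under the same peak in every list. Their widths differed, with 2737 and 1942 bp in G1E-ER4 and 1677 and 2885 bp in G1E at Mmab/Mvk, and 5920 and 8441 bp in G1E-ER4, against 6159 and 5322 bp in G1E, at Chpf/Tmem198.

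The 21 pairs with no peak in any list were poor in CpG. Their median GC content was 54.0% and their median CpG ratio 0.424, against 62.6% and 0.846 for the 737 pairs open in all 4 lists, and 4 of the 21 were CpG-rich. The 50 pairs open in 1 to 3 lists lay between, with a median CpG ratio of 0.641. Named genes of closed pairs include Plcz1, Capza3, Smc1b and Rnf151. Plcz1 encodes the sperm phospholipase that activates the egg, Capza3 a sperm actin-capping protein, Smc1b the meiotic cohesin subunit, and Rnf151 a testis RING protein. Galntl6/BC030500, Miip/Fv1, Best1/Rab3il1, Zfp558/Mbd3l1 and Lrrc63/Lcp1 were also closed. In 6 of the 21 another annotated start of a gene had a peak in all 4 lists, as for Rps2, a ribosomal protein gene annotated with a start 59 bp from that of Rnf151, and Lcp1, the leukocyte plastin gene. At Best1/Rab3il1, with a bestrophin channel and a Rab3A-binding protein, the nearest peak began 110 and 230 bp outside the window in G1E-ER4, against 432 and 245 bp in G1E.

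Few pairs differed between the states in having a peak at all. A peak in both lists of G1E-ER4 and neither of G1E was found at 4 pairs (0.495%), against 0.943% of all protein-coding starts. These were Cabp4/Gpr152, Nisch/Sema3g, Dgcr2/Tssk1 and Dnase2b/Uox. Cabp4/Gpr152, with a retinal calcium-binding protein and an orphan receptor, stood at 55.7 and 60.1 in G1E-ER4. Dgcr2/Tssk1, in which Tssk1 is a testis kinase, stood at 67.8 and 26.5, Nisch/Sema3g at 67.0 and 43.1, and Dnase2b/Uox, with a lens nuclease and urate oxidase, at 14.9 and 65.5. All 4 were weak for pairs and poor in CpG, with ratios of 0.0561 to 0.365. With G1E-ER4 list 1 left out the count was 11, with G1E list 1 left out 8, and among CpG-rich pairs 0. With a list left out, 1 list stood for its state, which is a looser rule. These counts were not made over all starts.

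In the other direction, both lists of G1E and neither of G1E-ER4 had a peak at 3 pairs (0.371%), against 0.818% of all protein-coding starts. Hist1h2ba/Hist1h2aa, the testis variants of histones H2B and H2A, stood at 66.3 and 74.1 in G1E, the only histone pair without a peak in either G1E-ER4 list. Gm10399/Vsig10 stood at 59.4 and 19.2 and Duox2/Duoxa2, the thyroid peroxide-forming oxidase and its maturation factor, at 30.3 and 41.8. With G1E-ER4 list 2 left out the count was 19, and with G1E list 1 left out 8. Both shares were below the background, which lay inside their Wilson 95% intervals (0.193 to 1.27% for G1E-ER4 and 0.126 to 1.09% for G1E).

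Among the 737 pairs open in all 4 lists, 13 (1.76%) ranked at least 10 points higher on average in G1E-ER4 with both G1E-ER4 lists above both G1E lists, against 4.62% of all 10413 protein-coding starts open in all 4 lists. The 8 with the largest differences are given. Wdr54/1700003E16Rik stood at 84.7 and 44.4 in G1E-ER4, against 11.9 and 32.5 in G1E, and Ppp1r3d/9030418K01Rik, with a glycogen-targeting phosphatase subunit, at 78.4 and 72.0 in G1E-ER4, against 57.4 and 10.2 in G1E. In each of these the 2 lists of at least 1 state lay far apart. Leprel4/Fkbp10, a pair of genes for collagen folding in the endoplasmic reticulum, stood at 79.6 and 77.1 in G1E-ER4, against 60.3 and 33.4 in G1E. Nr2e1/Ostm1, with a nuclear receptor of neural stem cells and a lysosomal chloride transporter subunit, stood at 76.9 and 65.7 in G1E-ER4, against 50.7 and 29.2 in G1E. It held 2 peaks in each G1E-ER4 list, against 3 and 2 in the G1E lists.

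Of the 8, the lists of both states lay closest together at Ntrk3/Gm9885, with the neurotrophin-3 receptor gene, which stood at 77.8 and 82.3 in G1E-ER4, against 51.7 and 49.8 in G1E. Its peaks were 5176 and 3972 bp wide in G1E-ER4 and 1640 and 635 bp wide in G1E. Lyzl4/Vipr1, with the receptor for vasoactive intestinal peptide, stood at 81.0 and 66.3 in G1E-ER4, against 46.1 and 48.8 in G1E. Obsl1/Inha, with the inhibin alpha subunit, stood at 86.1 and 72.5 in G1E-ER4, against 59.9 and 48.3 in G1E, and Gm17649/Hoxc13 at 79.4 and 77.3 in G1E-ER4, against 68.0 and 42.0 in G1E. None of the 8 stood above percentile 87 in any list, so all were weaker than the typical pair.

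Only 4 pairs (0.543%, against 1.87% of all starts) ranked at least 10 points lower on average in G1E-ER4 with both of its lists below both G1E lists. 1700101I19Rik/Fam123c stood at 56.1 and 38.5 in G1E-ER4, against 86.4 and 75.4 in G1E. Dus4l/Cog5, with a tRNA dihydrouridine synthase and a Golgi complex subunit, stood at 71.7 and 90.7 in G1E-ER4, against 94.4 and 95.4 in G1E. Mtrr/Fastkd3, with methionine synthase reductase and a mitochondrial RNA-binding protein, stood at 74.4 and 95.8 in G1E-ER4, against 96.3 and 95.9 in G1E. Dzip3/C330027C09Rik, with the ubiquitin ligase gene Dzip3, stood at 75.4 and 96.5 in G1E-ER4, against 96.5 and 96.7 in G1E. In the last 2 the difference lay in G1E-ER4 list 1, while list 2 was within 1 point of G1E list 1. With list 1 left out 20 pairs were higher and 3 lower, and with list 2 left out 14 were higher and 135 lower. In these counts only 1 G1E-ER4 list had to lie above or below both G1E lists, which is a looser rule. When only peaks with their summit in the window counted, 1 pair was higher and 3 were lower, so neither count nor their balance was stable. With ranks taken among promoter peaks alone 72 were higher and 57 lower. That scale is stretched, with pair medians of 62.8 and 72.1 in G1E-ER4, against 71.1 and 68.7 in G1E. A threshold of 10 points is therefore looser there. These alternatives were counted at pairs only, not over all starts.

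**Figure D5:**
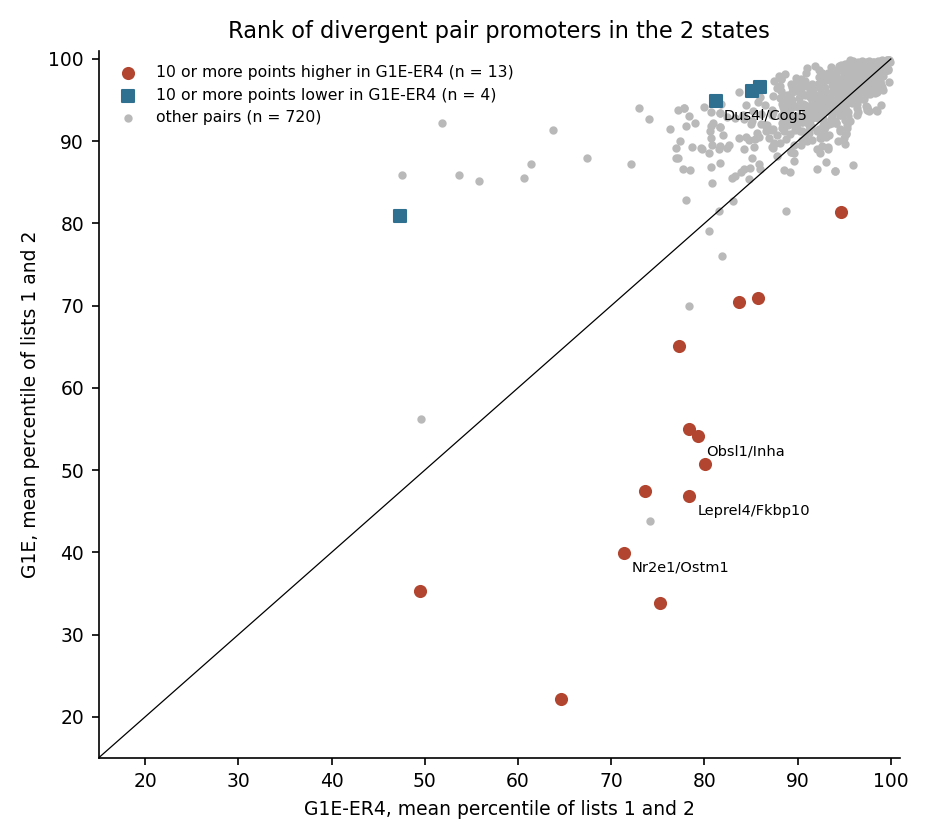
Mean percentile over the 2 lists of G1E-ER4 (x axis) and of G1E (y axis) for each of the 737 divergent pairs with a peak in all 4 lists; the line marks equal values. The 13 pairs at least 10 points higher in G1E-ER4 lie below the line and mostly under a percentile of 90, the 4 lower ones lie above it, and most pairs sit in the top right corner.

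Differences of any size with no overlap of the lists were also not more frequent at pairs than over the genome. Both G1E-ER4 lists were above both G1E lists at 74 pairs (10.0%, against 14.3% of all starts) and below at 96 (13.0%, against 13.5%). G1E-ER4 list 2 alone was above both G1E lists at 368 of 753 pairs (48.9%, against 50.3% of all starts) and below at 153 (20.3%, against 21.5%). The share of calls followed the rank. Among the 611 pairs with a mean percentile of 90 or more, which stand near the top of the scale, 0 were called higher and 2 (0.327%) lower. Single promoters of that rank were much the same, with 3 (0.055%) of 5451 higher and 14 (0.257%) lower. Among the 126 weaker pairs 13 (10.3%) were higher and 2 (1.59%) lower. Weaker single promoters were called higher in 15.8% and lower in 6.21%. The median difference, G1E-ER4 minus G1E, was -1.31 points over the pairs and -0.65 over single promoters. It turned round without G1E-ER4 list 1, to 0.66 over the pairs and 0.96 over single promoters. The lists of G1E-ER4 differed from each other by a median of 4.11 points at pairs and those of G1E by 1.35. The means of the states differed by a median of 1.89, below the spread within G1E-ER4 and above that within G1E. A mean of 2 lists varies less than a single list, so these measures are not alike.

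The difference moved with the chromosome. On chromosome 12, 31 of the 32 open pairs had a lower mean in G1E-ER4, with a median difference of -4.43 points, and in 20 of them the lists did not overlap. Their median percentile was 88.2 and 95.02 in G1E-ER4 lists 1 and 2, against 97.2 and 98.0 in G1E lists 1 and 2. On chromosome 7 the median difference was 0.82, and 17 of 49 pairs were higher without overlap and 4 lower. On chromosome 3 it was 0.33, with 7 of 30 higher and 1 lower. On chromosome X it was -4.14 over 12 pairs, in all of which the lists overlapped, and on the chromosomes other than 3, 7, 9, 12 and X it was -1.37 over 573 pairs. With G1E-ER4 list 2 alone the median difference was -1.44 on chromosome 12, where 23 of 32 pairs were lower, 1.14 on chromosome 7, 3.13 on chromosome 3, 2.69 on chromosome X and 0.45 on the others, so that of chromosome X changed its sign. Over both lists the median of single promoters moved the same way. It was -3.16 on chromosome 12, 1.29 on chromosome 7, 1.10 on chromosome 3 and -4.20 on chromosome X. Lists without overlap were not counted by chromosome for single promoters, so those counts do not set pairs apart from other promoters. Dus4l/Cog5, Xrcc3/Zfyve21 and Wars/Wdr25 lie on chromosome 12 and Ntrk3/Gm9885 on chromosome 7, and the part of the chromosome in their differences was not tested. Without chromosomes 3, 7, 9 and 12, 10 pairs were at least 10 points higher and 3 lower.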

How the data were processed

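DNase-seq peak lists of G1E-ER4 and G1E cells, 2 per state, were used as deposited. Per the series design text, 20-base tags were aligned to mm9 with Bowtie, keeping tags with several matches at their best place, and F-seq density was cut into peaks by a gamma fit for each replicate. The tools' versions and the cut-off of the fit were not given in the sources used here. The value ranked is the signal the authors deposited, the F-seq density of each peak, whose scaling between lists is not stated; it was used only as a percentile within a list. The summit is another deposited value, an offset in bp. Keeping tags with several matches can place peaks in repeated sequence.

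Starts came from the GENCODE vM1 annotation of mm9 (all transcripts of protein-coding genes), and sequences from the genome of the same build. Each window took its best overlapping peak (1 bp or more). Single promoters were measured on the start ± 500 bp; for CpG and motifs their centre was placed 70 bp upstream of the start. State calls needed lists that did not overlap and a mean difference of 10 points. Results are descriptive, with Wilson 95% intervals. Named pairs were the well-known pairs, the 10 highest, those differing between states (8 each way), up to 8 closed pairs, erythroid pairs and the strongest pairs of each group, of which only some are given; Hist1h2bh/Hist1h3f, and the closed pairs' genes with another open start, and Wars/Wdr25 and Psma7/Ss18l1 as examples that vary, were named after their values were seen. Members, gene groups, motifs and lists were chosen with earlier results of these data known. Alternatives were other flanks, distances, annotations, sets of genes, peaks, ranks and thresholds, and leaving out each list. On simulated data the steps recovered 200 of 200 pairs. Python 3.11.15, pandas 2.3.3, NumPy 2.4.6, statsmodels 0.14.6 and matplotlib 3.10.9 were used.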

Additional observations from a re-analysis of the deposited data

How the results depend on the processing

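Pairs stayed above single promoters in openness, median percentile and median width, averaged over the lists, under every alternative run. The balance of the state calls was not stable: 13 higher and 4 lower pairs became 14 and 135 without G1E-ER4 list 2, 1 and 3 by summit, and 0 and 2 at a mean percentile of 90 or more (added after seeing the data), and 4 pairs open in G1E-ER4 alone and 3 in G1E alone became 5 and 19 without G1E-ER4 list 2, 2 and 3 with protein-coding transcripts only, and 0 and 2 when CpG-rich. The median state difference of -1.31 points was 0.66 without G1E-ER4 list 1, added after seeing the data. The share of pairs open in all 4 lists was 93.8% without predicted and tissue-restricted names, 95.4% when CpG-rich, 83.8% with the summit inside the window, 88.7% in the top 50% of each list, and 91.2 to 93.2% with 1 list left out. For single promoters these were 50.5, 76.0, 30.7, 37.1 and 42.0 to 45.2%, with 39.6 and 44.1% at flanks of 250 and 1000 bp and 45.3% over every annotated start (added after seeing the data). The percentile difference was 1.47 points when CpG-rich, 2.19 in the top 50% and 18.2 when ranked among promoter peaks alone, and the width difference was 135 bp when CpG-rich. Both starts lay under the same peak in 96.0% of CpG-rich pairs and in 87.2% with the summit inside the window. With overlapping 5' ends included (1227 pairs), 7 pairs were open in G1E-ER4 alone, 5 in G1E alone and 27 at least 10 points higher in G1E-ER4. Pairs open in G1E-ER4 alone numbered 8 by summit and 4 to 11 with 1 list left out. Those in G1E alone numbered 1 in the top 50% and 3 to 19 with 1 list left out. Higher pairs numbered 7 with named genes, 8 when CpG-rich, 4 in the top 50%, 72 among promoter peaks, 20 and 8 at thresholds of 5 and 20 points, and 14 to 20 with 1 list left out. Lower pairs numbered 2 with named genes, 57 among promoter peaks, 20 and 1 at 5 and 20 points, and 3 to 135 with 1 list left out, the most without G1E-ER4 list 2. The cause was not tested. Under the alternatives these state calls were not counted over all starts, so they do not set pairs apart from other promoters. With 1 list left out, a single list stood for its state, which is a looser rule. Among promoter peaks alone the scale is stretched, so 10 points are a looser threshold there. No paired analysis was possible because each state is 1 sample and no result comes from a test.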
